A study of Mus musculus with 9 samples.

Results

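The genes described here are 10 members of the interleukin-10 (IL-10) axis and of the SOCS feedback loop, measured by RNA sequencing in mouse macrophages. They were chosen by name from the 24445 genes of the deposited count table, with the RefSeq transcript of highest total count taken for each gene. The members are the ligand Il10, the receptor chains Il10ra, Il10rb and Il4ra, the IL-10-induced regulators Nfil3 and Sbno2, and the feedback inhibitors Socs1, Socs2, Socs3 and Cish. All 10 had enough counts to be tested. The cells were bone marrow-derived macrophages (BMDMs) of C57Bl/6 mice, which are cultured from marrow progenitors. There were 3 groups of 3 libraries: Veh_N received vehicle for 1 h and then vehicle again for 24 h, Veh_LPS received vehicle for 1 h and then LPS (bacterial lipopolysaccharide, a ligand of the Toll-like receptor TLR4) for 24 h, and D2HG_LPS received D2HG octyl ester, a cell-permeable form of the metabolite D-2-hydroxyglutarate, for 1 h before 24 h of LPS. The dose of the ester is not given in those labels, and no group received the ester without LPS. Nothing in the labels ties a replicate to an animal or a culture of its own, so a p-value here measures the spread between libraries only, which may be technical.

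IL-10 is a secreted cytokine that restrains inflammatory gene expression in macrophages. It binds a receptor made of IL-10RA, which is specific to it, and IL-10RB, which other cytokines of the family share. The kinases JAK1 and TYK2 then phosphorylate STAT3, a transcription factor whose targets include Socs3, Nfil3 and Sbno2. SOCS proteins bind activated JAKs or receptors, block them and recruit a ubiquitin ligase through their SOCS box. A cytokine that induces them can thereby limit cytokine signals, though not always its own. LPS induces Il10 in macrophages along with the inflammatory cytokines, and so starts both the response and its restraint.

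Counts, summed over the transcript kept for each gene, ran from 9451258 to 13759935 per library. Levels are given as CPM, the count of a gene relative to its library's total over the tested genes. They are scaled by TMM, a normalization that removes differences in RNA composition between libraries. All 7 macrophage markers were detected in every group, with a summed level of 13049 to 15522 CPM in Veh_N, 11122 to 11623 CPM in Veh_LPS and 11298 to 11857 CPM in D2HG_LPS. Summed levels of other cell types were far lower. The 7 neutrophil markers summed to 25.2 to 34.2, 55.7 to 71.8 and 53.4 to 66.3 CPM in these groups, and the 6 T cell markers to 15.0 to 16.4, 23.5 to 36.9 and 24.1 to 26.2 CPM, with Cd3d, Cd3e and Cd3g at 0 in Veh_LPS. The 5 dendritic cell markers summed to 0.889 to 1.72 CPM in Veh_N, 7.80 to 9.19 CPM in Veh_LPS and 8.39 to 9.97 CPM in D2HG_LPS. The 6 stromal and endothelial markers summed to 0.862 to 1.65, 20.4 to 22.9 and 15.8 to 19.0 CPM, and the 5 B cell markers to 8.21 to 11.2, 3.18 to 4.05 and 4.05 to 5.55 CPM. Natural killer, mast cell and erythroid markers reached at most 0.691 CPM in any library. The part of these markers in the results on the members was not tested.

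The promoters of the feedback genes are shown first because several carry the letters read by STAT factors. RefSeq promoter windows of 300 bases (250 before and 50 after the start site, build GRCm38.p6) were at hand for 6 of the 10 members, in 8 windows. They were searched on both strands for TTCNNNGAA, the core of the gamma-activated site (GAS) bound by STAT dimers, which reads the same on both strands, and for GAAANNGAAA (TTTCNNTTTC on the other strand), the core of the interferon-stimulated response element. In the stretches below, written 5′ to 3′ on the gene's strand, the capitals mark the matches.
Socs3, chr11:117969452-117969580, minus strand: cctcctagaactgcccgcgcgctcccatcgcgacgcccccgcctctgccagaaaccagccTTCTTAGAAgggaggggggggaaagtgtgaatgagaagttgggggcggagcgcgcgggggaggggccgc
Cish, chr9:107296654-107296683, plus strand: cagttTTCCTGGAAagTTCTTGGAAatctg
Socs1, chr16:10785544-10785679, minus strand: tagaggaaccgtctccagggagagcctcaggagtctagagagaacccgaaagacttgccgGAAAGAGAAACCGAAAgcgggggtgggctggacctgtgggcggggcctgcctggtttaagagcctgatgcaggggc
The Socs3 window held 1 GAS match, starting at position -154 from the start site. The Cish window held 2 side by side, starting at positions 1 and 12. Socs1 held no GAS match but 2 overlapping matches to the interferon element core, starting at -83 and -77. Sbno2 had a GAS match near each of 2 of its 3 start sites, TTCGCAGAA at -26 and TTCCCGGAA at -24. Nfil3 held neither motif, and neither did Il4ra. A search for the NF-kappaB core GGGNNNTTCC (GGAANNNCCC on the other strand) found 1 match among these windows, GGAAAGCCCC at position 21 of Il4ra. Of all 32851 promoter windows, 8.3% held the GAS core, 3.44% the interferon element core and 5.56% the NF-kappaB core. These matches describe letters in a window and do not show that a factor binds there.

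LPS alone changed 9 of the 10 genes. In Veh_LPS against Veh_N, 8 rose, 1 fell (Il10rb) and 1 was not called (Il4ra), by the quasi-likelihood test of edgeR with Benjamini-Hochberg adjustment over the 11622 genes tested and a threshold of 0.05. In the same comparison 73.9% of all tested genes were called, 35% as higher and 38.9% as lower. The share of members called in either direction was therefore not far above the background, while 8 in 10 stood higher against 35% of all genes. The median log2 fold change was 2.23 over the members and -0.073 over all tested genes. In bulk RNA, a change in the number of cells of a type and a change in RNA per cell cannot be told apart.

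Il10, the ligand, stood at 1.65, 1.78 and 2.59 CPM in the Veh_N libraries, at 79.6, 81.7 and 71.2 CPM in Veh_LPS and at 68.2, 56.9 and 68.2 CPM in D2HG_LPS. Every library with LPS was above every library without it, and every D2HG_LPS library was below every Veh_LPS library. The log2 fold change of Il10 in Veh_LPS over Veh_N was 5.28 ± 0.15 (SE; adjusted p = 6.63e-12), a 38.9-fold rise.

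The receptor chains of IL-10 changed in opposite directions with LPS, and their levels came closer. Il10ra, which encodes the ligand-binding chain, was at 115, 129 and 138 CPM in Veh_N, 326, 332 and 300.4 CPM in Veh_LPS and 278, 263 and 268 CPM in D2HG_LPS. Its 3 groups did not overlap, with Veh_N lowest and Veh_LPS highest, and LPS raised it by 1.33 ± 0.08 on the log2 scale (adjusted p = 1.17e-08). Il10rb, the shared chain, was at 342, 355 and 375 CPM in Veh_N, 231, 252 and 242 CPM in Veh_LPS and 237, 222 and 257 CPM in D2HG_LPS. Here the Veh_N libraries were the high ones and both LPS groups overlapped. The log2 fold change of Il10rb with LPS was -0.56 ± 0.08 (adjusted p = 2.54e-05). Scaling by library totals alone moved the median of all genes by -0.67, the value of Il10ra to 0.66 and that of Il10rb to -1.23, with both still called.

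Il4ra encodes the receptor chain for IL-4 and IL-13, and IL-10 is known to raise it in macrophages. Its level was 249.7, 271 and 303 CPM in Veh_N, 284, 216 and 220.3 CPM in Veh_LPS and 204, 196 and 211 CPM in D2HG_LPS. Veh_LPS replicate 1 stood within the range of Veh_N, so those groups overlapped, whereas all 3 D2HG_LPS libraries were below the other 6. The log2 fold change in Veh_LPS over Veh_N was -0.19 ± 0.11, with an adjusted p of 0.121. Il4ra was called lower in that comparison without Veh_LPS replicate 1 (-0.32, adjusted p = 0.0123), without Veh_N replicate 1 (-0.26, adjusted p = 0.0426), with upper-quartile scaling (-0.52) and with library totals (-0.86).

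Both transcriptional regulators rose with LPS. Nfil3, a basic leucine zipper repressor that IL-10 induces and that acts on Il12b, was at 10.3, 11.1 and 10.6 CPM in Veh_N, 93.8, 87.2 and 81.2 CPM in Veh_LPS and 69.2, 62.1 and 71.6 CPM in D2HG_LPS. The groups formed 3 separate steps, with D2HG_LPS between the others. Nfil3 rose by 3.03 ± 0.10 on the log2 scale in Veh_LPS over Veh_N (adjusted p = 1.94e-11), an 8.16-fold change. Sbno2, which encodes a corepressor of inflammatory genes downstream of IL-10 and STAT3, was at 93.2, 104 and 98.0 CPM in Veh_N, 207, 159 and 157 CPM in Veh_LPS and 179, 175 and 163 CPM in D2HG_LPS. All 6 libraries with LPS were above Veh_N, and the D2HG_LPS libraries lay within the Veh_LPS range. The rise of Sbno2 was 0.82 ± 0.11 (adjusted p = 1.26e-05), and with library totals alone it was no longer called (0.16, adjusted p = 0.187).

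The SOCS genes had the widest range of responses. Socs3, the main feedback inhibitor of STAT3 signalling from the IL-6 receptor family, was at 8.21, 13.5 and 13.4 CPM in Veh_N, 1080, 1033 and 929.5 CPM in Veh_LPS and 1081, 988 and 1089 CPM in D2HG_LPS. It went from a low to a high level in all 6 LPS libraries, with no separation between the LPS groups. Its log2 fold change was 6.43 ± 0.17 (adjusted p = 2.84e-12), an 86.5-fold rise. Socs1, which inhibits JAK kinases and restrains interferon signalling, was at 0.552, 0.652 and 0.940 CPM in Veh_N, 142, 129 and 70.5 CPM in Veh_LPS and 120.2, 119 and 111 CPM in D2HG_LPS. Veh_LPS replicate 3 held the lowest Socs1 level of the 6 LPS libraries and Veh_LPS replicate 1 the highest. The log2 fold change of Socs1 was 7.31 ± 0.32 (adjusted p = 3.52e-10), from 31 counts in all of Veh_N, and counting error alone gave an interval of 6.80 to 7.87.

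Cish and Socs2, which growth factor and STAT5 signals are known to induce, stayed low. Cish was at 1.03, 1.25 and 1.02 CPM in Veh_N, 6.62, 5.94 and 3.94 CPM in Veh_LPS and 5.85, 7.0 and 6.91 CPM in D2HG_LPS. Every LPS library was above every Veh_N library, and the LPS groups overlapped, with Veh_LPS replicate 3 lowest. Its rise was 2.29 ± 0.25 (adjusted p = 2.50e-06). Socs2 was at 0.138, 0.356 and 0.235 CPM in Veh_N, 0.988, 0.743 and 1.66 CPM in Veh_LPS and 1.17, 1.88 and 1.48 CPM in D2HG_LPS. These levels rest on 11, 36 and 49 counts per group. Its log2 fold change of 2.17 ± 0.48 (adjusted p = 0.0013) had a counting interval of 1.22 to 3.34. These intervals cover counting error only.

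**Figure D1:**
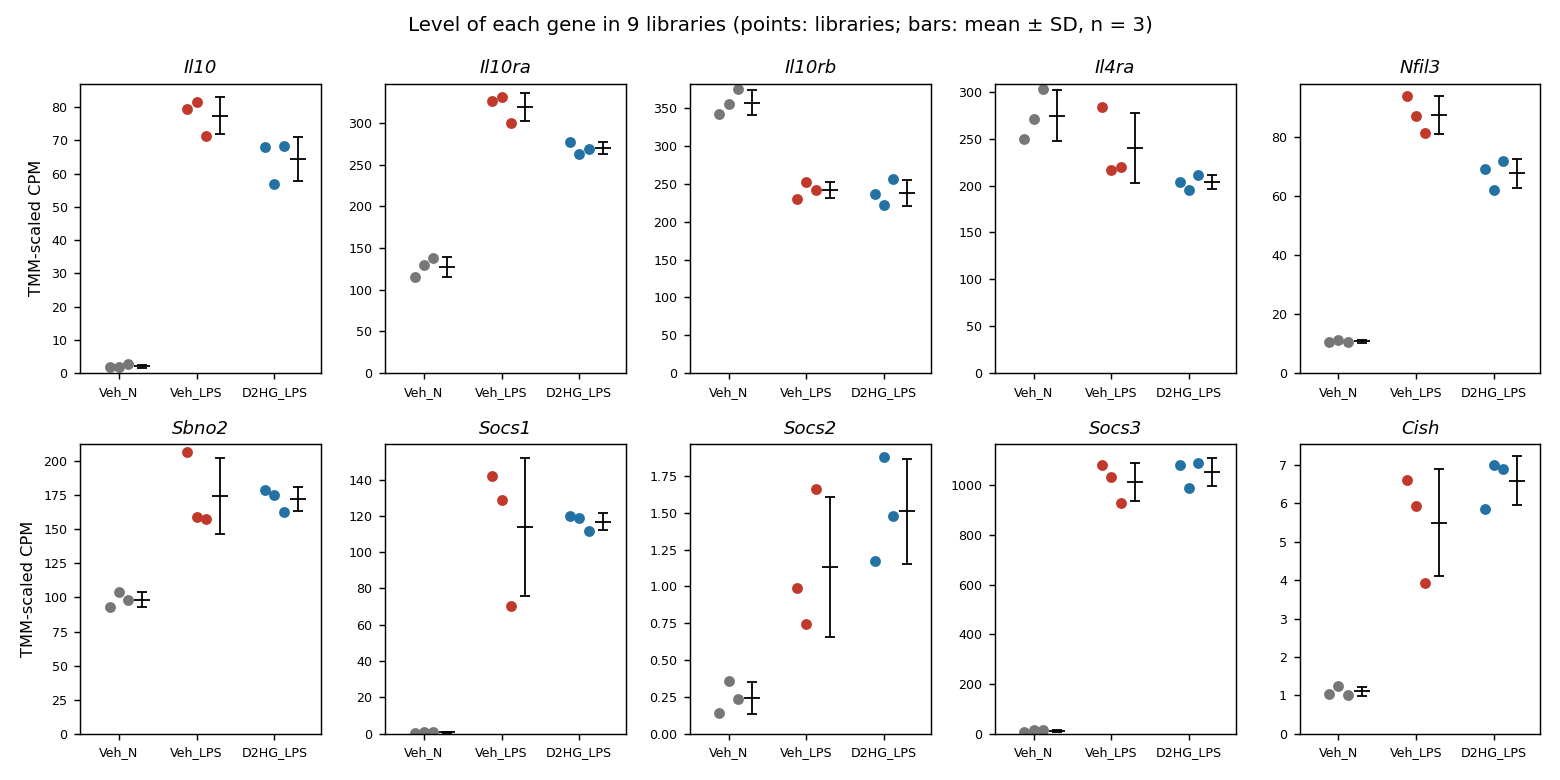
Level of each of the 10 genes, in TMM-scaled CPM on a linear axis from 0 with its own range per gene, in the 9 libraries by group. Points are libraries and bars are the mean ± SD of 3 libraries. Il10rb is the gene called lower in Veh_LPS than in Veh_N, Il4ra overlaps between those groups, and Il10, Il10ra, Il4ra and Nfil3 show D2HG_LPS below Veh_LPS without overlap.

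Divided by transcript length, Socs3 had the highest level in Veh_LPS, at 397 ± 30.1 CPM per kilobase (SD, n = 3). Next came Il10rb at 131 ± 5.83 and Il10ra at 114 ± 5.95 CPM per kilobase. Socs1 at 65.8 ± 22.0 and Il10 at 59.2 ± 4.22 did not differ beyond their spread. Il4ra at 45.7 ± 7.19, Nfil3 at 43.1 ± 3.11 and Sbno2 at 41.3 ± 6.63 formed another group of levels within their spread. Cish at 1.93 ± 0.489 and Socs2 at 0.509 ± 0.214 CPM per kilobase were lowest. In Veh_N the order began with Il10rb at 193 ± 8.98, Il4ra at 52.3 ± 5.14 and Il10ra at 45.5 ± 4.22 CPM per kilobase, and Socs3 stood at 4.59 ± 1.19. Lengths came from the GENCODE vM21 annotation (for Socs1, from the span of its RefSeq locus), so the order of close neighbours depends on the transcript taken.

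D2HG_LPS against Veh_LPS compares LPS-treated cells with and without pretreatment with the ester. No group received the ester without LPS, so a changed response to LPS cannot be told apart from an effect of the ester itself. None of the 10 genes passed the threshold by the quasi-likelihood test of edgeR with Benjamini-Hochberg adjustment, where 2.11% of all tested genes were called, 1.15% as higher and 0.955% as lower. At an unadjusted p below 0.05 there were 4 members, all lower with the ester: Nfil3, Il10ra, Il10 and Il4ra. That compares with 15.8% of all genes in either direction. The count of members depended on the setting. It was 1 with library totals alone, and 5 without Veh_LPS replicate 3. It was 2 with upper-quartile scaling, with the replicate block, without Veh_LPS replicate 1 or without D2HG_LPS replicate 2. It was 3 with limma-voom and with isoform counts summed. It was also 3 without Veh_N replicate 2, Veh_LPS replicate 2, D2HG_LPS replicate 1 or D2HG_LPS replicate 3. The groups did not overlap for the same 4 genes, against 24.2% of all genes (12.4% in the lower direction). DESeq2 called 2 members, Nfil3 and Il10ra, where it called 4.49% of all genes, and limma-voom called Nfil3, where it called 2.26%. The median log2 fold change of the members was -0.018, beside 0.00862 over all genes.

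Nfil3 had the smallest p of the members. Its mean was 87.4 ± 6.31 CPM in Veh_LPS and 67.6 ± 4.97 CPM in D2HG_LPS (SD, n = 3 each). The log2 fold change was -0.37 ± 0.09 (95% interval -0.56 to -0.18), with an adjusted p of 0.0505 by edgeR. This lies just outside the threshold, and the side on which it fell depended on the setting: 8 of 18 alternatives called it. They were DESeq2 size factors (adjusted p = 0.0312), no filter on low counts (0.0471), the DESeq2 test (0.00348), limma-voom (0.0449), a fit of only the 2 groups compared (0.0366), and fits without Veh_N replicate 1 (0.0254), Veh_N replicate 3 (0.0412) or Veh_LPS replicate 3 (0.0489). Over all 18 the value stayed between -0.42 and -0.31, and the adjusted p ran from 0.00348 to 0.212. The direction was thus lower in each of these fits while the call was not stable.

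Il10 itself averaged 77.5 ± 5.53 CPM in Veh_LPS and 64.4 ± 6.54 CPM in D2HG_LPS. Its log2 fold change was -0.27 ± 0.11 (95% interval -0.51 to -0.03; adjusted p = 0.261), and adjusted p over the alternatives ran from 0.133 to 0.544. Il10ra averaged 319 ± 16.6 and 269.7 ± 7.48 CPM, a log2 fold change of -0.24 ± 0.08 (-0.42 to -0.07; adjusted p = 0.160). DESeq2 called Il10ra (adjusted p = 0.0366), and in the other alternatives it was not called, with adjusted p up to 0.385. Il4ra averaged 240.0 ± 37.8 and 203 ± 7.65 CPM, a log2 fold change of -0.24 ± 0.11 (-0.47 to -0.00; adjusted p = 0.314). For Il4ra the difference shrank to -0.10 without Veh_LPS replicate 1.

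**Figure D2:**
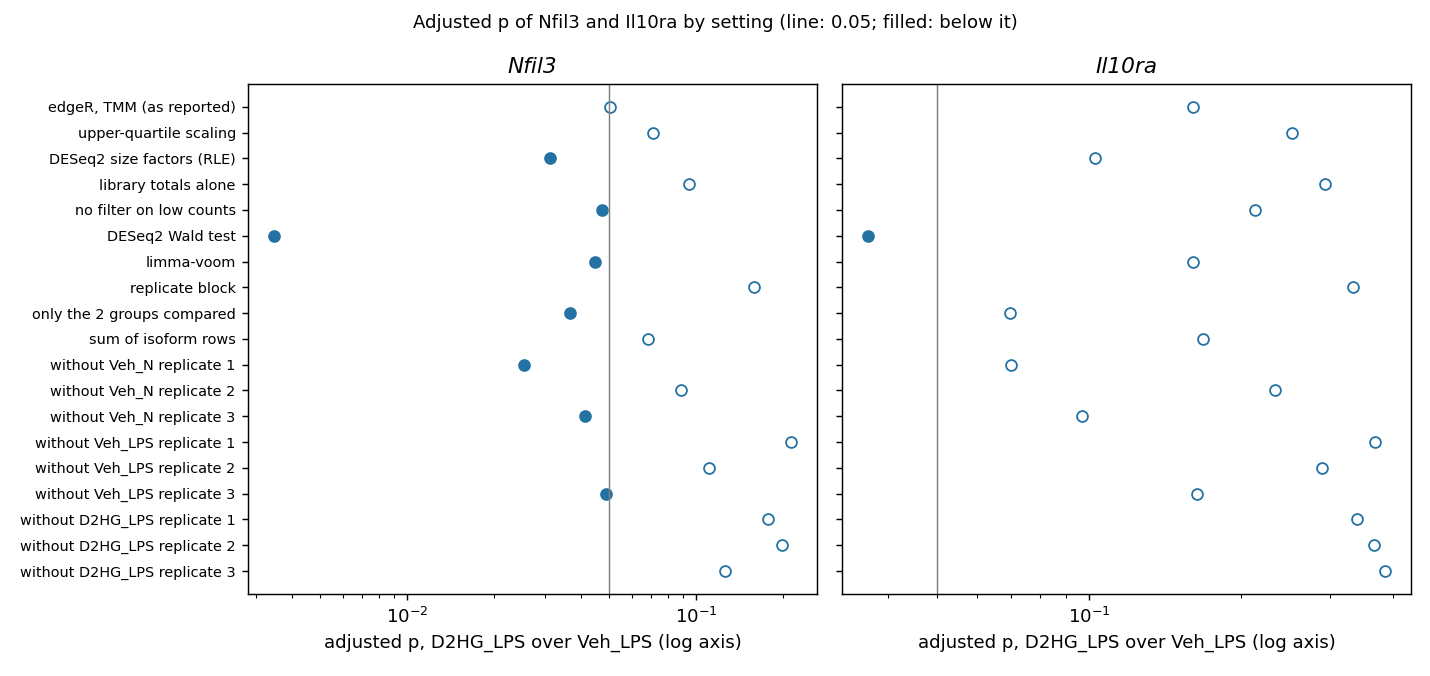
Benjamini-Hochberg adjusted p (log axis) of Nfil3 and Il10ra in D2HG_LPS over Veh_LPS, 1 point for each setting named on the left, with a line at 0.05 and filled points below it. Nfil3 crosses the line from 0.0505 in 8 of 18 alternatives, and Il10ra lies below it only with the DESeq2 test, at 0.0366.

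For the remaining 6 members the LPS groups overlapped, and the intervals give the size of difference the data allow. For Il10rb the log2 fold change was -0.02 ± 0.08 (95% interval -0.19 to 0.15; adjusted p = 0.940) and for Sbno2 -0.02 ± 0.10 (-0.24 to 0.21; adjusted p = 0.958). Socs3, at 1014 ± 76.8 CPM in Veh_LPS and 1053 ± 56.1 CPM in D2HG_LPS, had 0.05 ± 0.13 (-0.22 to 0.33; adjusted p = 0.880). Socs1, at 114 ± 38.1 and 117 ± 4.68 CPM, had 0.04 ± 0.19 (-0.38 to 0.46; adjusted p = 0.948), and without Veh_LPS replicate 3 the value was -0.21. Cish and Socs2 were less precise: 0.27 ± 0.20 (-0.17 to 0.71; adjusted p = 0.564) for Cish, and 0.40 ± 0.37 (-0.40 to 1.19; adjusted p = 0.656) for Socs2. Without Veh_LPS replicate 3 Cish moved to 0.07 and Socs2 to 0.80. Cish was 0.43 without Veh_LPS replicate 1, and Socs2 was 0.18 without Veh_LPS replicate 2 and 0.19 without D2HG_LPS replicate 2. The signs for Il10rb, Sbno2, Socs1 and Socs3 turned under at least 1 alternative.

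**Figure D3:**
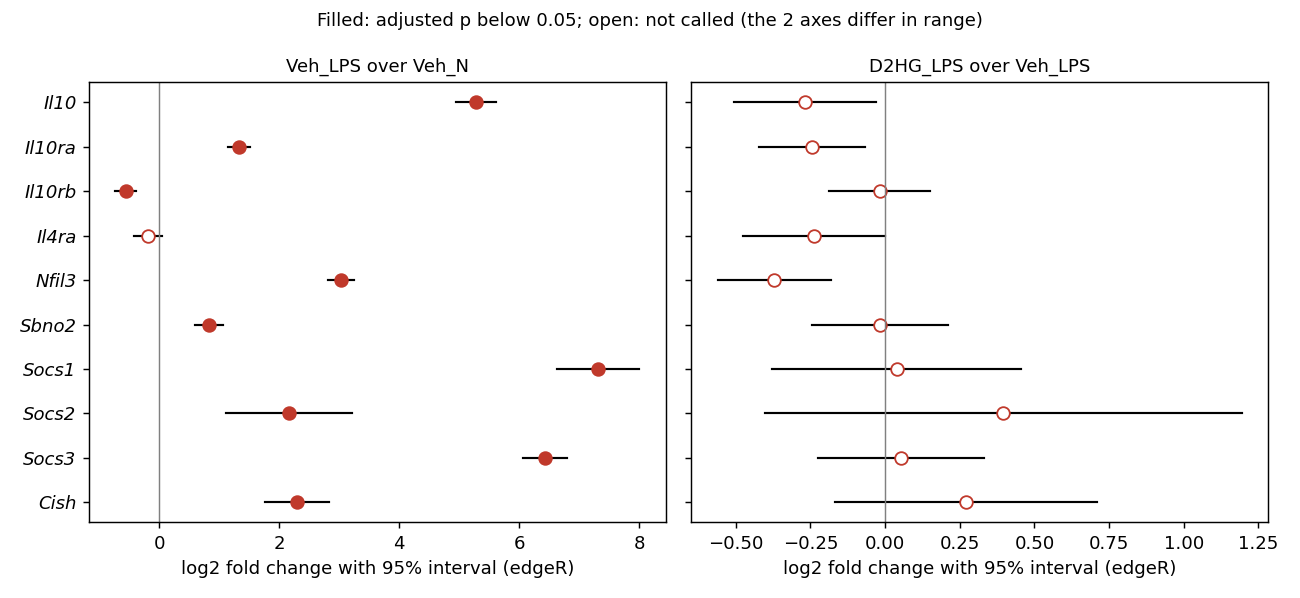
Log2 fold change with its 95% interval from edgeR for each gene, on the left Veh_LPS over Veh_N and on the right D2HG_LPS over Veh_LPS, with different axis ranges. Filled points passed an adjusted p of 0.05: 9 of 10 on the left and 0 of 10 on the right, where Nfil3 at -0.37 has the smallest adjusted p, 0.0505.

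In D2HG_LPS against Veh_N, which shares its libraries with the comparisons above, 8 members were higher and 2 lower by the same edgeR test, where 72.6% of all genes were called, 35.4% as higher and 37.2% as lower. Il10 had a log2 fold change of 5.02 there beside 5.28 in Veh_LPS over Veh_N, Nfil3 2.66 beside 3.03, and Il10ra 1.08 beside 1.33. The SOCS genes had 6.49 beside 6.43 for Socs3, 7.35 beside 7.31 for Socs1, 2.56 beside 2.29 for Cish and 2.56 beside 2.17 for Socs2. Il10rb had -0.58 beside -0.56 and Sbno2 0.81 beside 0.82. Il4ra was called lower, at -0.43 ± 0.11 (adjusted p = 0.00305), where Veh_LPS over Veh_N gave -0.19 and no call. With library totals alone Il4ra moved to -1.04, Il10ra to 0.47 and Il10rb to -1.19, all still called, and Sbno2 was not called (0.20, adjusted p = 0.0996).

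Ratios of counts between genes of 1 library do not depend on scaling. They were chosen with the results above known, 21 comparisons were made, and with 3 libraries against 3 the exact two-sided permutation test cannot give a p below 0.1. The ratio of Il10ra to Il10rb counts was 0.336, 0.363 and 0.369 in Veh_N, 1.42, 1.32 and 1.24 in Veh_LPS and 1.17, 1.18 and 1.05 in D2HG_LPS. On the log2 scale it averaged -1.49 ± 0.0722, 0.40 ± 0.0956 and 0.18 ± 0.0991 (SD, n = 3). The groups did not overlap, and the differences of 1.89 with LPS and -0.22 with the ester each had an exact p of 0.1 (adjusted 0.123). Counts of the ligand-binding chain were thus below those of the shared chain in Veh_N and above them in all 6 LPS libraries. Per kilobase the mean of Il10ra stayed below that of Il10rb, at 114 against 131 CPM in Veh_LPS and 96.3 against 129 CPM in D2HG_LPS. With the transcript lengths used here, the crossing was thus one of counts and not of levels per length. The order per length depends on the transcript taken.

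Il12b and Il6 encode inflammatory cytokines that IL-10 restrains. The ratio of Il10 to Il12b counts was 0.291, 0.289 and 0.195 in Veh_LPS and 0.370, 0.371 and 0.363 in D2HG_LPS, a log2 difference of 0.53 (exact permutation p = 0.1, adjusted 0.123). Il12b itself had a log2 fold change of -0.81 ± 0.12 with the ester (adjusted p = 0.00326 by edgeR), against -0.27 for Il10. The ratio of Il10 to Il6 was 0.248, 0.243 and 0.164 in Veh_LPS and 0.314, 0.251 and 0.294 in D2HG_LPS, a log2 difference of 0.41 (exact permutation p = 0.1, adjusted 0.123). Il6 itself had log2 fold changes of -0.78 to -0.55 with the ester over 19 settings and was called lower in 18 of them. Il10 was not higher with the ester, so a higher ratio here is not a rise of Il10. Both ratios were higher in every D2HG_LPS library than in every Veh_LPS library, and Veh_LPS replicate 3 was the lowest in each. Leaving out 1 library at a time gave 0.34 to 0.63 for Il12b and 0.22 to 0.51 for Il6, and the difference was lowest without Veh_LPS replicate 3. The ratio of Il10 to Tnf, another inflammatory cytokine, overlapped between the groups, with a log2 difference of -0.18 (exact permutation p = 0.3, adjusted 0.35).

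**Figure D4:**
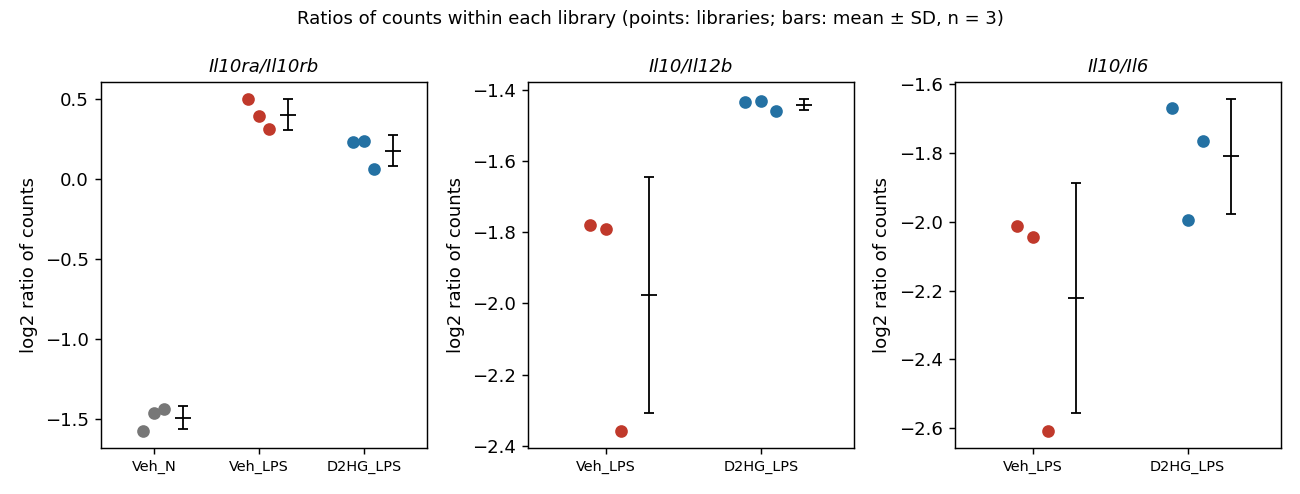
Log2 ratio of counts within each library for Il10ra over Il10rb in the 3 groups, and for Il10 over Il12b and Il10 over Il6 in Veh_LPS and D2HG_LPS. Points are libraries and bars the mean ± SD of 3 libraries. The Il10ra ratio is below 0 in the Veh_N libraries and above it in the 6 LPS libraries, and both Il10 ratios are higher in D2HG_LPS.

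The genes nearest to Il10 in both fold changes were taken from 8230 candidates, by the distance over the log2 fold changes of Veh_LPS over Veh_N and D2HG_LPS over Veh_LPS. They were Tma16 (5.27 and -0.28, distance 0.0209), Il12rb1 (5.24 and -0.29, distance 0.0426), which encodes a receptor chain for IL-12 and IL-23, and Phf11b (5.35 and -0.24, distance 0.0756). These distances are below the standard errors of Il10 itself, so their order carries no weight.

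Beyond the members, 9 lists of 92 genes around the axis were examined, of which 77 genes were tested. In Veh_LPS over Veh_N, 45 rose and 23 fell, or 88.3% of the 77, beside 73.9% of all genes (35% higher and 38.9% lower), and the counts of each list below stand against the same shares. In D2HG_LPS over Veh_LPS, 1 rose and 3 fell, or 5.19% of the 77, beside 2.11% of all genes. The IL-10 signalling chain downstream of the receptor rose as a whole with LPS: 6 of 6 genes, with a median of 1.86. With library totals alone 5 of 6 rose, and Jak1 turned to -0.10. Stat3, the central factor, had a log2 fold change of 2.25 ± 0.07. Tyk2, the kinase bound to IL-10RB, went from 80.6 ± 3.42 CPM in Veh_N to 268 ± 13.4 in Veh_LPS and 217 ± 3.36 in D2HG_LPS. It fell with the ester by 0.31 ± 0.07 on the log2 scale (adjusted p = 0.0461). That call was absent in 12 of 18 alternatives, among them those without any single LPS-treated library or without Veh_N replicate 2.

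Among 12 target genes of IL-10 and STAT3, 9 rose, 2 fell and 1 was not called with LPS, and the median was 2.32. With library totals alone 9 rose and 3 fell. Il1rn, the IL-1 receptor antagonist, rose by 6.28 ± 0.16, and Zfp36, whose product destabilizes cytokine mRNA, by 3.63 ± 0.09. The 2 that fell were Cd163 (-4.06 ± 0.33), a haemoglobin scavenger receptor, and Ddit4 (-2.67 ± 0.36), an inhibitor of mTORC1 signalling, both named after their values were seen. Hmox1, heme oxygenase, was not called (-0.13 ± 0.09). None of the 12 was called with the ester by edgeR, 1 had an unadjusted p below 0.05, and DESeq2 called 1 and limma-voom 0. The smallest p values were those of Tnip3, which binds the NF-kappaB inhibitor A20 (-0.49 ± 0.14, adjusted p = 0.115), and Hmox1 (0.20 ± 0.09, adjusted p = 0.329), and the median was 0.01.

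Of 11 regulators known to act on Il10 itself, 5 rose and 4 fell with LPS, with a median of 0.06, or 4 and 6 with library totals alone. The 11 were transcription factors, kinases and the histone deacetylase Hdac11. Nfkb1, an NF-kappaB subunit, rose by 2.92 ± 0.08, and Mapk14, which encodes the kinase p38 alpha, fell by 1.64 ± 0.08. Maf, a transcription factor that drives Il10, was at 492 ± 55.5 CPM in Veh_N, 508 ± 52.0 in Veh_LPS and 373 ± 15.0 in D2HG_LPS. LPS gave no call for Maf (0.05 ± 0.10), though it was called lower with upper-quartile scaling and, at -0.62, with library totals alone. Maf was called lower with the ester by edgeR, at -0.45 ± 0.10 (adjusted p = 0.0356). The Maf call with the ester was lost in 9 of 18 alternatives: library totals alone, the replicate block, and fits without any single LPS-treated library or without Veh_N replicate 2. Its value over them was -0.49 to -0.36. Atf1 had 0.33 ± 0.10 with the ester and was not called (adjusted p = 0.134). Nfkb1 had -0.22 ± 0.07 with the ester and was not called either (adjusted p = 0.153). In this list 3 of 11 genes had an unadjusted p below 0.05 by edgeR, beside 15.8% of all genes. DESeq2 called 2 and limma-voom 1, beside 4.49% and 2.26% of all genes.

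Of 11 other ligands and receptors of the IL-10 family, 3 had any count and 2 were tested. Il20rb, a receptor chain for IL-19, IL-20 and IL-24, averaged 1.38 ± 0.375 CPM in Veh_N, 7.01 ± 1.07 in Veh_LPS and 4.61 ± 0.733 in D2HG_LPS, and was called higher with LPS (2.31 ± 0.23). Il19 had 0 counts in Veh_N, 1.06 ± 0.674 CPM in Veh_LPS and 1.53 ± 0.200 CPM in D2HG_LPS. Neither was called with the ester by edgeR, DESeq2 or limma-voom, and 1 (Il20rb, -0.60 ± 0.21) had an unadjusted p below 0.05.

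Partners and targets of the IL-4 receptor split, with 5 of 10 tested genes higher and 4 lower with LPS and a median of 0.62, or 5 and 5 with library totals alone. Ccl22, a chemokine of alternative activation, rose by 7.04 ± 0.20, and Il2rg, the common gamma chain, by 1.86 ± 0.07. With the ester 0 were called by edgeR, DESeq2 or limma-voom, and 0 had an unadjusted p below 0.05. Ccl24, a chemokine too low to be tested here, held 4, 7 and 5 counts in Veh_N, 6, 10 and 13 in Veh_LPS and 2, 2 and 1 in D2HG_LPS. It was named after its values were seen, because 4 alternatives that tested it called it lower with the ester: no filter on low counts (adjusted p = 0.0395), and fits without Veh_N replicate 1 (0.0251), Veh_N replicate 3 (0.033) or Veh_LPS replicate 1 (0.046). In the other 4 that tested it the adjusted p was 0.0582 to 0.152. Il2rg had -0.11 ± 0.07 (adjusted p = 0.484) and Klf4, a STAT6-induced transcription factor, -0.14 ± 0.11 (adjusted p = 0.592).

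Receptors that SOCS proteins restrain also split, 6 higher, 6 lower and 1 not called of 13 with LPS. Il6ra fell by 3.53 ± 0.14 and Ifngr1, a chain of the interferon gamma receptor, by 2.18 ± 0.08. With library totals alone the split was 2 higher and 10 lower. Csf3r, the G-CSF receptor and a target of SOCS3, was at 50.5 ± 1.70 CPM in Veh_N, 161 ± 2.84 in Veh_LPS and 118 ± 8.61 in D2HG_LPS. It was called lower with the ester, at -0.45 ± 0.08 (adjusted p = 0.00988), and the call was lost in 4 of 18 alternatives: the replicate block, and without Veh_LPS replicate 1, D2HG_LPS replicate 1 or D2HG_LPS replicate 3. Lifr had -0.74 ± 0.23 (adjusted p = 0.129). Il6ra and Ifngr1 went the other way with the ester, at 0.37 ± 0.16 and 0.21 ± 0.08, and were not called. These 4 of the 13 genes had an unadjusted p below 0.05 by edgeR, beside 15.8% of all genes. DESeq2 and limma-voom each called 1, beside 4.49% and 2.26% of all genes.

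Of the 4 other SOCS genes, Socs7 rose with LPS (2.31 ± 0.10), Socs5 and Socs6 fell, by 1.71 ± 0.12 and 1.30 ± 0.11, and Socs4 was not called (0.05 ± 0.13). Socs5, which acts on epidermal growth factor and IL-4 receptor signals, was at 25.1 ± 1.06 CPM in Veh_N, 7.66 ± 0.884 in Veh_LPS and 12.01 ± 1.06 in D2HG_LPS. It was the gene of these lists called higher with the ester, at 0.64 ± 0.13 (adjusted p = 0.0277). That call was lost in 7 of 18 alternatives: the replicate block, and without Veh_N replicate 2, Veh_LPS replicate 1, Veh_LPS replicate 2 or any single D2HG_LPS library.

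The list of ubiquitin ligase partners of the SOCS box also holds Cul2 and Rbx1, parts of a related ligase. In it 5 of 6 genes rose with LPS, with a median of 0.71. Cul2, a cullin scaffold, had 2.20 ± 0.16, and Eloc, elongin C, 0.94 ± 0.09. Cul5, the cullin of SOCS box ligases, had 0.55 ± 0.13. Its partner Rnf7, named after its value was seen, was not called (0.03 ± 0.11). With library totals alone 2 genes of this list were higher and 1 lower. Other inhibitors of JAK-STAT signalling gave 6 higher and 5 lower of 13, or 3 and 8 with library totals alone. Usp18, which restrains the type I interferon receptor, rose by 6.84 ± 0.22, and Ptpn2, a phosphatase of JAKs and STATs, by 2.04 ± 0.09. With the ester edgeR called 0 genes of either list. Among the ligase partners 0 had an unadjusted p below 0.05 and DESeq2 and limma-voom called 0, and among the other inhibitors these numbers were 3, 1 and 0 of 13, beside 15.8%, 4.49% and 2.26% of all genes. The ubiquitin ligase Cblb had -0.40 ± 0.10 (adjusted p = 0.0721).

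**Figure D5:**
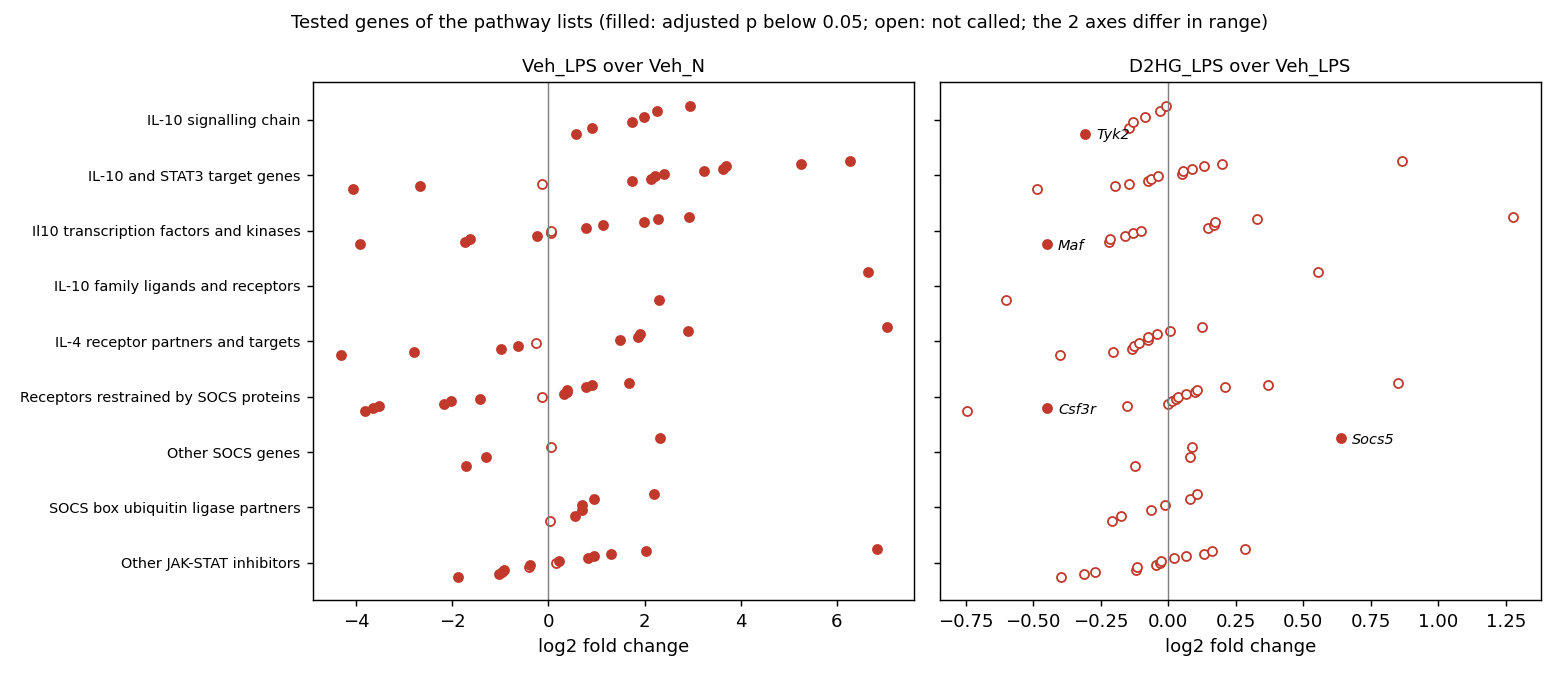
Log2 fold change of each tested gene in the 9 lists, on the left Veh_LPS over Veh_N and on the right D2HG_LPS over Veh_LPS, with different axis ranges. Filled points passed an adjusted p of 0.05 by edgeR. On the right these are Tyk2 at -0.31, Maf at -0.45, Csf3r at -0.45 and Socs5 at 0.64.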

How the data were processed

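RNA was measured in 9 libraries of mouse bone marrow-derived macrophages. Per the labels' protocols, libraries were strand-specific (KAPA mRNA HyperPrep). Per the submitters' processing notes, STAR 2.5.2b and DESeq2 were used, with the builds mm10 and mm9. The sources used here do not give the counting program, its annotation or its strand setting.

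The authors deposited raw read counts for 35745 RefSeq transcripts, of which 35440 were given symbols by RefSeq's gene table and 188 by GENCODE vM21. The 117 unmatched transcripts (0.676% to 2.37% of a library's counts) were left out. Isoforms of a gene share reads, so the transcript with most counts stood for the gene.

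Counts were filtered with filterByExpr (11622 genes), scaled by TMM (factors 0.831 to 0.887 in the LPS groups, 1.338 to 1.351 in Veh_N) and fitted with edgeR 4.0.16 in R 4.3.3 (glmQLFit, robust, group as the only term, all 9 libraries; two-sided glmQLFTest, Benjamini-Hochberg adjusted p below 0.05). Standard errors are the fold change over the root of F. Depth limits the precision for low genes, and counting intervals (95%) cover counting error only. The fit was tested on simulated data. Alternatives used limma 3.58.1, DESeq2 1.42.0, other scalings and filters, and fits without each library.

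The members and lists were chosen with earlier results of these data known. Genes named are all members, the 2 of smallest p per list in each of Veh_LPS over Veh_N and D2HG_LPS over Veh_LPS, and the 3 nearest to Il10 in both fold changes, among tested genes, predicted ones aside, whose mean log2 CPM was 3 or more. An item that this rule names is not reported here. Alternatives for the ratios and for Tyk2, Maf, Csf3r and Socs5 were added after seeing the data.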

Additional observations from a re-analysis of the deposited data

How the results depend on the processing

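With LPS, 9 or 10 of 10 members were called in 17 of 18 alternatives, and 8 of the 9 tested where only the 2 groups were fitted, and 8113 to 9701 genes were called. With the ester, edgeR called 245 genes, against 522 with DESeq2, 450 when only the 2 groups were fitted, and 64 to 501 when 1 library was left out. The cause was not tested. Of the members, 0 were called, against 1 with DESeq2 size factors, with no filter, with limma-voom or with only the 2 groups fitted, 2 with the DESeq2 test, and 0 to 1 when 1 library was left out (1 without Veh_N replicate 1, Veh_N replicate 3 or Veh_LPS replicate 3, in each case Nfil3). Values within their own error changed sign with the ester: Il10rb was 0.00529 with upper-quartile scaling, 0.0436 with library totals and -0.0737 to 0.0264 without 1 library. Sbno2 was 0.00648, 0.044 and -0.0863 to 0.123 under these. Socs1 was -0.213 and Socs3 -0.00469 without Veh_LPS replicate 3, where the highest values without 1 library were 0.233 and 0.101. The calls with LPS were higher in 47.4% of cases, 33.2% with upper-quartile scaling and 21.8% with library totals. With the ester this share was 54.7%, 40.8% with DESeq2 size factors, 34.3% with the DESeq2 test and 74.4% with library totals.

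The replicate numbers did not pair the libraries (correlations of same-numbered libraries -0.456 to 0.191). Veh_LPS replicate 3 and Veh_N replicate 1 had a correlation of 0.529. The spread between replicates differed by group. Chi-square per degree of freedom against counting error was 2.78 to 5.16 in D2HG_LPS, 3.30 to 18.2 in Veh_LPS and 6.75 to 23.7 in Veh_N. The main fit used a common estimate of the spread for all groups. With a replicate block 93 genes and 0 members were called with the ester. Socs2 gave no value in the fit of only Veh_LPS and Veh_N, nor an adjusted p with the DESeq2 test for the ester. The counts per library over the transcripts kept (9451258 to 13759935) leave Socs2 and Cish with intervals too wide to show a small difference.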
